A study of Homo sapiens with 4 samples.

Results

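The 2 gene clusters described here, miR-106a-363 and miR-106b-25, are the paralogs of the human miR-17-92 cluster. Their members were taken by name from a TaqMan array card: hsa-miR-106a, hsa-miR-18b, hsa-miR-20b and hsa-miR-363 for cluster miR-106a-363, and hsa-miR-106b, hsa-miR-93 and hsa-miR-25 for cluster miR-106b-25, together 7 of the 377 human miRNA assays on the card. The assays were run on material of RPMI8226, a human cell line established from multiple myeloma. The 4 samples, 1 per group, were cells kept for 24 h in normoxia (20% O2), cells kept for 24 h in hypoxia (1% O2), and the exosome fraction of culture medium from each condition. The cultures were kept in AIM-V medium, and the labels name no drug or transgene for any of the groups. The exosome fraction was what a polymer reagent precipitated from 5 ml of cleared and filtered medium, so it can hold extracellular RNA that is not in vesicles. Of the 4 samples, the exosome products alone were pre-amplified before the card was run.

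miRNAs are short RNAs that guide a repressor complex to messenger RNAs, mainly through the seed, bases 2 to 8 from the 5′ end. The members of a cluster are cut from a shared primary transcript, so their genes are transcribed together, while the mature forms can differ in processing and stability. Cluster miR-106b-25 lies in an intron of MCM7, a gene of the replicative DNA helicase, and cluster miR-106a-363 lies on the X chromosome. Members of both clusters are known to lower the cell-cycle inhibitor CDKN1A and the pro-apoptotic protein BCL2L11, and raised miR-106b-25 levels have been described in plasma cell tumours.

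The mature sequences decide which assays could be told apart, and are given here from RefSeq (GRCh38.p14) with the seed in capitals. All 7 members were found there. The card's names carry no arm, and each was taken as the arm that had the name without an asterisk in older nomenclature. The members with the miR-17 seed were the following.
miR-106a: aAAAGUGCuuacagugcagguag
miR-20b: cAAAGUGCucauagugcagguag
miR-106b: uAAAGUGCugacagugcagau
miR-93: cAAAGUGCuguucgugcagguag
The member with the miR-18 seed was the following.
miR-18b: uAAGGUGCaucuagugcaguuag
The members with the miR-92 seed were the following.
miR-363: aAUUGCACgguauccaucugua
miR-25: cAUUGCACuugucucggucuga
The nearest relatives from cluster miR-17-92, shown because the comparisons with them recur in the results, were the following.
miR-17: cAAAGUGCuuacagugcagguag
miR-20a: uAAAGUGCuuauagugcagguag
miR-18a: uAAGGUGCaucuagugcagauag
miR-92a: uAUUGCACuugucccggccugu

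Counted from 1 at the 5′ end, with the base of the member first, miR-106a differed from miR-17 by the single substitution A1C, outside the seed. miR-18b differed from miR-18a by U20A, and miR-20b differed from miR-20a by C1U and C10U. Within cluster miR-106a-363, miR-106a and miR-20b differed at 3 positions (A1C, U10C and C12U). miR-25 matched miR-92a at 18 of 22 positions, and miR-363 matched miR-25 at 9 of 22. Whether each assay distinguished its target from these neighbours was not tested in the data.

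The mature sequences of cluster miR-106a-363 lay within 885 bases of chromosome X, chrX:134169382-134170266, on the minus strand. Those of cluster miR-106b-25 lay within 493 bases of chromosome 7, chr7:100093571-100094063, on the minus strand and inside the MCM7 gene. Cluster miR-106a-363 also contains the genes MIR19B2 and MIR92A2. The mature miR-19b and miR-92a have 2 genes each, in that cluster and in miR-17-92 on chromosome 13, and their values therefore could not be assigned to a cluster.

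The deposited values are threshold cycles (Ct), the PCR cycle at which a well's fluorescence crossed a threshold. If each cycle doubles the product, a Ct lower by 1 stands for 2 times as much template. The highest value in the table is 35, which was read as not detected. A Ct under 35 was recorded for 155 to 221 of the 377 miRNAs per sample, and for 138 in all 4 samples. Each miRNA had 1 well per sample and each group 1 sample, so no value has a replicate error and no test between groups was made. The repeat measurement on the card was the small nuclear RNA U6, with 4 wells per sample. Its SD was 0.15 cycles in normoxic and 0.12 cycles in hypoxic cells, and a difference of 2 such single wells would have an SD of 0.19 cycles. In the exosome fraction not all U6 wells were under 35, and no SD was taken. The 6 blood and lymphoid marker miRNAs were detected in all 4 samples, at Ct 24.95 to 31.97 in cells. The liver marker miR-122 was detected in none, and the red cell markers were at 35 except miR-451 at Ct 33.19 in the normoxic exosome fraction. The 4 epithelial markers were also detected in cells (Ct 28.64 to 33.98), as was miR-9 of the 2 neural markers (Ct 28.94 and 28.87), and 1 of 2 muscle markers on the card in hypoxic cells (Ct 32.96). In the exosome fraction 3 of the 4 epithelial, both neural and both muscle markers were detected. Their part in the results was not tested. miR-210, the standard hypoxia-induced miRNA, was 11.7-fold higher in the cells labelled hypoxic. In the exosome fraction labelled hypoxic it was 1.31-fold higher, at rank 25 of 203 from the highest.

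The Ct values were not spread evenly over the cycle. Of the 757 detected wells, 63.4% lay within 0.1 of a whole cycle, where even spread would give 20%. Of the members' 24 detected wells, 13 (54.2%) did. In cells each of the 6 detected members had exactly 1 such well of its 2. In the exosome fraction miR-20b had both wells near a whole cycle and the other 5 had 1 each. The part of this crowding in small differences between wells was not tested. The 2-fold and 4-fold thresholds used below are whole cycles at a doubling per cycle, and its part in the counts past them was not tested either.

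Of the 7 members, 6 were detected in all 4 samples and 1 in none. miR-363, the last member of cluster miR-106a-363, stood at 35 in every sample, although the other 3 members of its cluster were detected. Its ratios in the authors' deposited table, 0.9965 in cells and 1.0376 in the exosome fraction, were computed from wells at the ceiling and are not measurements. The only other assay on the card with the miR-92 seed that stood at 35 in all 4 samples was miR-367; miR-25, miR-92a and miR-32 were detected in all of them. Of the other assays with the miR-17 seed, miR-519d was at 35 in both cell samples and stood at 32.99 and 32.14 in the exosome fraction.

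miR-106a, the first member of cluster miR-106a-363, was the most abundant member by Ct. It stood at 21.73 under normoxia and 21.94 under hypoxia in cells, and at 15.88 and 15.96 in the exosome fraction. These placed it at rank 3 of 162, 2 of 155, 4 of 221 and 3 of 219 detected miRNAs, counted from the lowest Ct. miR-17, which differs from it by a single base, gave nearly the same Ct in all 4 samples. The Ct of miR-106a minus that of miR-17 was -0.15 and -0.01 cycles in cells and 0.05 and 0.0026 cycles in the exosome fraction, at 20% and 1% oxygen. How much of the miR-106a signal came from miR-17 was not tested.

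miR-18b, which shares the seed of miR-18a and has no counterpart in cluster miR-106b-25, stood at 29.00 under normoxia and 29.27 under hypoxia in cells, and at 22.67 and 22.92 in the exosome fraction. It ranked 47 of 162 and 51 of 155 in cells, and 41 of 221 and 44 of 219 in the exosome fraction. Its Ct exceeded that of miR-18a by 0.05 and 0.49 cycles in cells at 20% and 1% oxygen, and by 0.71 and 0.70 cycles in the exosome fraction.

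miR-20b, a miRNA reported to repress HIF1A and VEGFA, had the highest Ct of the detected members in cells, at 30.96 in normoxia and 30.74 in hypoxia. In the exosome fraction it stood at 20.91 and 20.96. It moved from rank 78 of 162 and 65 of 155 in cells to rank 23 of 221 and 22 of 219 in the exosome fraction. Unlike miR-106a, it stood far from its closest relative: its Ct exceeded that of miR-20a by 8.33 and 7.77 cycles in cells and by 5.19 and 4.99 cycles in the exosome fraction.

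miR-106b, the first member of cluster miR-106b-25 and a known repressor of CDKN1A, stood at 26.95 under normoxia and 26.64 under hypoxia in cells, and at 19.97 and 20.36 in the exosome fraction. Its Ct was thus lower under hypoxia in cells and higher under hypoxia in the exosome fraction. miR-93, which acts on the same inhibitor, stood at 25.64 and 25.95 in cells and at 18.70 and 18.96 in the exosome fraction. It had the lowest Ct of its cluster in all 4 samples and ranked between 11 and 17 among the detected miRNAs. miR-25, known to repress BCL2L11, stood at 29.58 and 29.96 in cells and at 20.89 and 20.97 in the exosome fraction. It had the highest Ct of its cluster in all 4 samples and ranked 51 of 162 and 59 of 155 in cells, against 22 of 221 and 24 of 219 in the exosome fraction.

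**Figure D1:**
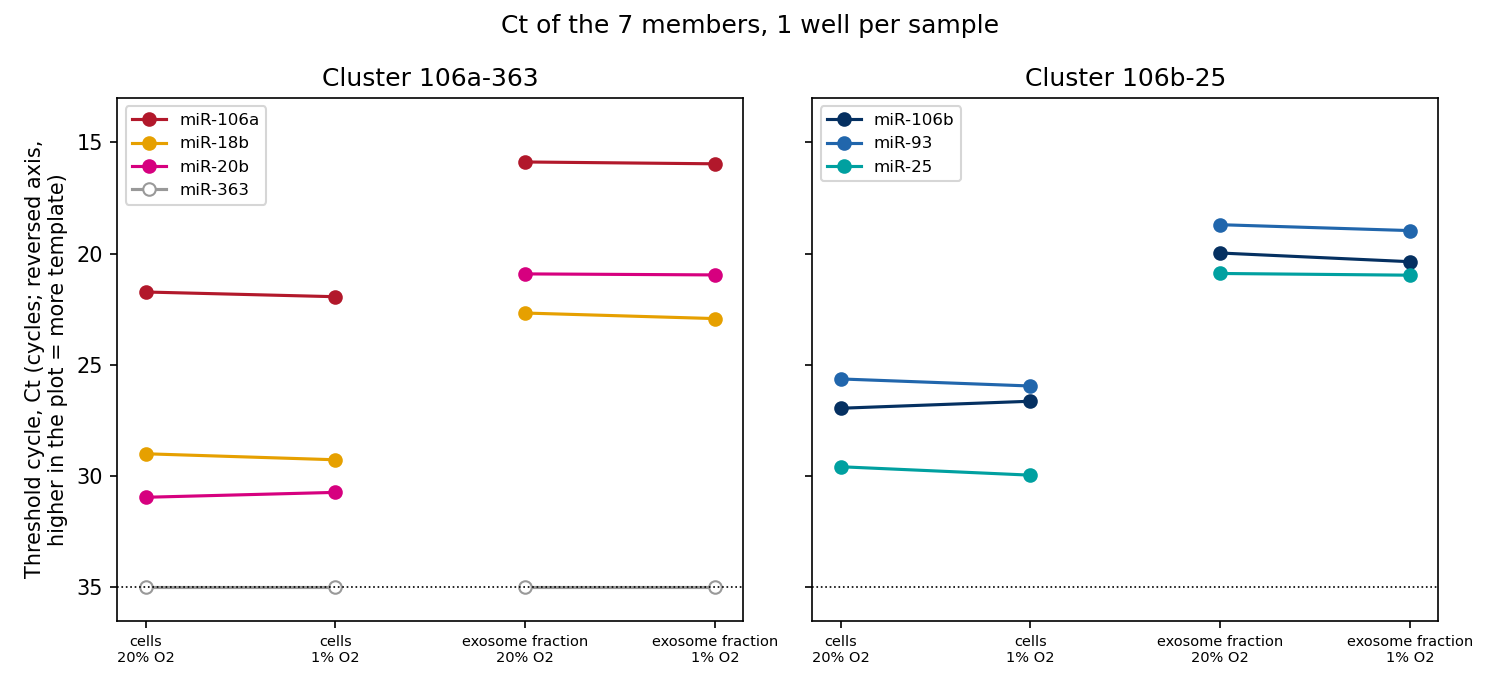
The threshold cycle (Ct, in cycles, on a reversed axis) of each member is plotted for the 4 samples, 1 well each, with cluster miR-106a-363 on the left and miR-106b-25 on the right; lines join the oxygen conditions of a compartment and the dotted line marks the ceiling of 35. miR-106a is uppermost in every sample, miR-363 lies on the ceiling throughout, and miR-20b lies below miR-18b in cells and above it in the exosome fraction.

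The order of the members by Ct was the same at both oxygen levels in cells: miR-106a, miR-93, miR-106b, miR-18b, miR-25 and miR-20b, with gaps between neighbours of 0.58 to 4.02 cycles. In the exosome fraction miR-106a, miR-93 and miR-106b kept the first places and miR-18b came last. miR-25 and miR-20b were 0.02 and 0.01 cycles apart there, less than the spread of U6 wells, and had no order. All other neighbours were further apart than the 0.19 cycles given above. That spread describes an abundant RNA within a card of the cell samples and was not measured in the exosome fraction. Assays can also differ in efficiency, so the order is one of Ct and not of molecules.

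The first question was whether the 2 clusters differ within a sample. Averaged over their detected members, they hardly did: the mean Ct of cluster miR-106a-363 was 27.23 under normoxia and 27.32 under hypoxia in cells, with 19.82 and 19.95 for the exosome fraction. That of cluster miR-106b-25 was 27.39, 27.52, 19.85 and 20.10 in the same order. The difference was -0.16, -0.20, -0.03 and -0.15 cycles. These means hide opposite members. Within cluster miR-106a-363 the Ct spanned 9.23 and 8.80 cycles in cells and 6.79 and 6.96 cycles in the exosome fraction, against 3.95 and 4.01, and 2.19 and 2.01 cycles, within cluster miR-106b-25.

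The near equality of the means depended on the members averaged. miR-363, at 35 in every sample, did not enter them, and at that value it would raise the mean Ct of its cluster in each sample. Taken by the median member, cluster miR-106a-363 stood 2.05 and 2.63 cycles above cluster miR-106b-25 in cells, and 0.94 and 0.59 cycles above it in the exosome fraction. Without miR-106a, the mean of cluster miR-106a-363 was 2.59 cycles above that of cluster miR-106b-25 in normoxic cells, and without miR-20b the difference was -2.03 cycles.

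Pairs of members with the same seed, taken in the same order along the clusters, gave the 2 sides of this balance. The Ct of miR-106a minus that of miR-106b was -5.23 under normoxia and -4.70 under hypoxia in cells, and -4.09 and -4.40 in the exosome fraction. miR-20b stood above miR-93 by 5.32 and 4.78 cycles in cells and by 2.21 and 1.99 cycles in the exosome fraction. In each of the 4 samples miR-106a thus came up earlier than its counterpart, and miR-20b later. The third pair, miR-363 with miR-25, could not be formed, because miR-363 was not detected.

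**Figure D2:**
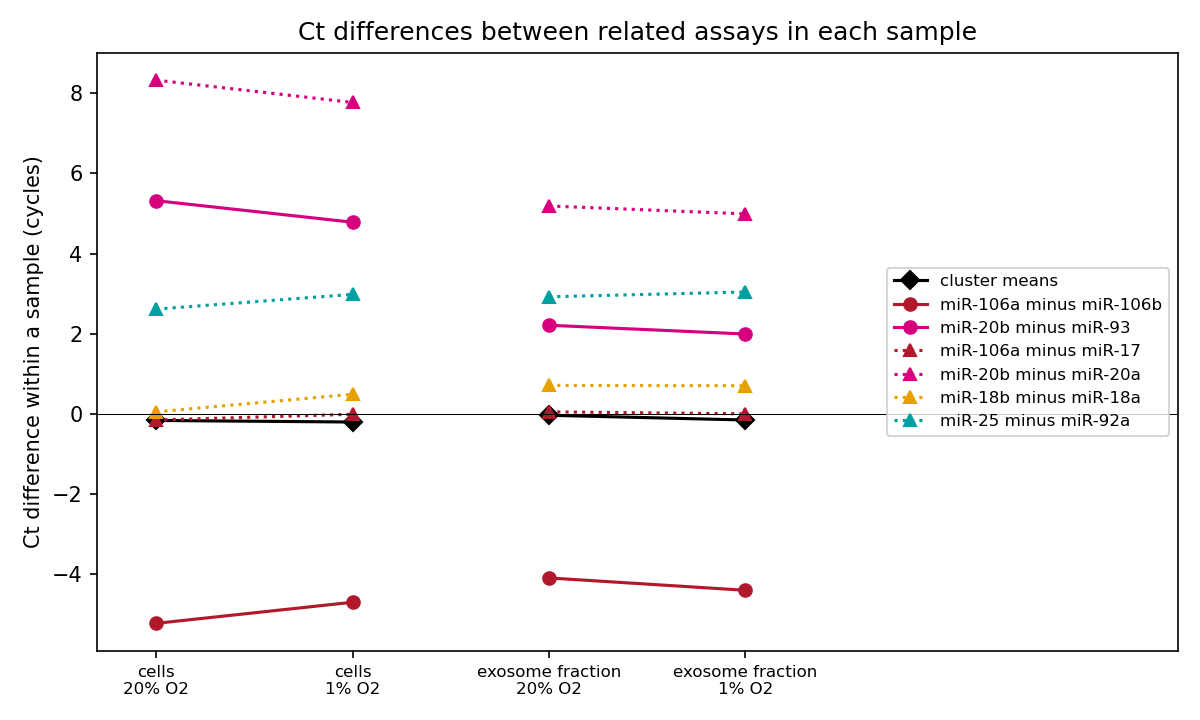
The difference in threshold cycle (cycles) between 2 assays of the same sample is plotted for the 4 samples. Solid lines compare the clusters (diamonds, cluster means, and circles, pairs of the same seed). Dotted lines with triangles compare a member with its relative in miR-17-92. The cluster means lie between -0.20 and -0.03 cycles, miR-106a minus miR-17 lies between -0.15 and 0.05, and miR-20b minus miR-93 falls from 5.32 in normoxic cells to 2.21 in the normoxic exosome fraction.

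The second question was which members differ between exosome fraction and cells. miR-20b stood out. Its ratio to miR-93, which shares its seed and was read in the same sample so that no normalizer enters, was 8.63 times that of cells in the normoxic exosome fraction (log2 3.11) and 6.92 times in the hypoxic one (log2 2.79). Its ratio to miR-20a was 8.82 and 6.88 times that of cells (log2 3.14 and 2.78). A yield that is constant for an assay cancels in these ratios, while an efficiency per cycle that differs between assays does not. Pre-amplification was applied to the exosome samples alone, and its bias for an assay cannot be told apart from the compartment. The part of miR-20a, miR-17 or miR-106a in the signal of the miR-20b assay was not tested in either compartment.

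For the whole card, each sample was centred on its median Ct over the 138 miRNAs detected in all 4 samples. On that scale miR-20b was 8.55-fold higher in the exosome fraction in normoxia (log2 3.10) and 6.95-fold higher in hypoxia (log2 2.80), at rank 2 of 138 in both. miR-25 was 3.35-fold higher (log2 1.74, rank 10) and 4.03-fold higher (log2 2.01, rank 5). Its relative miR-92a, which shares the seed, was 4.14-fold and 4.20-fold higher (log2 2.05 and 2.07). miR-32, with the same seed, stood at log2 -0.97 and -2.37, but its Ct in cells, 34.96 and 33.61, was at or near the ceiling.

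The other 4 detected members lay lower. miR-93 stood at log2 -0.01 and 0.01 and miR-106b at 0.03 and -0.71 in normoxia and hypoxia. miR-18b stood at -0.62 and -0.63 and miR-106a at -1.10 and -1.01, close to miR-17 at -0.90 and -0.99. The sign of these 4 depended on the centring, and with each sample's median over all the assays detected in it, which moved every value by 2.79 in normoxia and 2.97 in hypoxia, all 6 members were above 0. That median is over unlike sets, 162 and 155 assays in cells and 221 and 219 in the exosome fraction. Under the centrings and factors per cycle tried, the log2 value of miR-20b ranged from 2.87 to 5.89 in normoxia and from 2.59 to 5.77 in hypoxia. That of miR-25 ranged from 1.61 to 4.54 and from 1.86 to 4.98. The upper ends came from the unlike sets. Over assays shared by all 4 samples, the highest values were 3.84 and 3.79 for miR-20b and 2.49 and 3.00 for miR-25.

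With 4-fold in the same direction at both oxygen levels as the threshold, 1 of the 6 detected members, miR-20b, was past it. Over the whole card 4 of 138 miRNAs (2.9%) were past it on the higher side and 23 of 138 (16.7%) on the lower side, together 19.6%. The members' median log2 was 0.01 in normoxia and -0.31 in hypoxia, beside -0.44 and -0.83 over all 138. By this centring miR-25 fell short in normoxia (log2 1.74) and was barely past 4-fold in hypoxia (log2 2.01). It was past 4-fold at both oxygen levels with mean centring, with the median over miRNAs under Ct 32, and with miR-17, miR-20a and miR-93 as reference. In a bulk sample, a lower centred level can come from fewer cells or vesicles holding the miRNA or from less in each. These cannot be told apart.

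**Figure D3:**
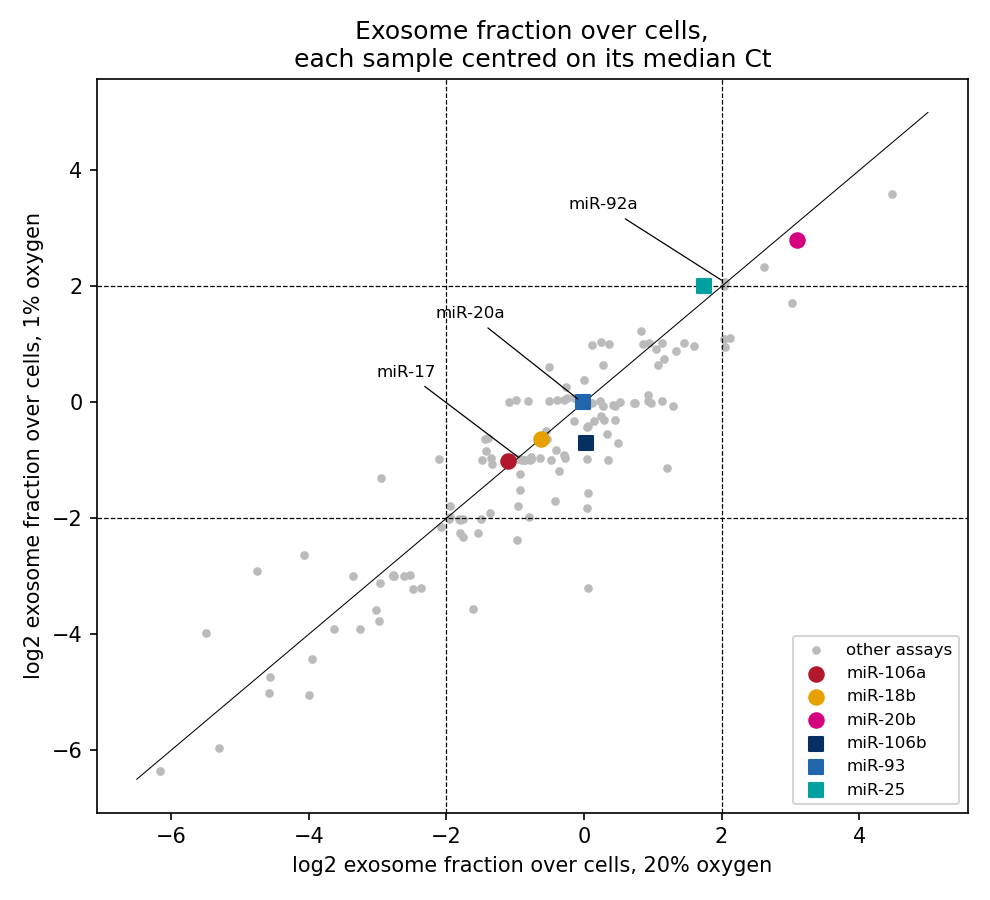
Each point is 1 of the 138 miRNAs detected in all 4 samples, with the log2 ratio of exosome fraction over cells at 20% oxygen on the horizontal axis and at 1% oxygen on the vertical axis; circles are members of miR-106a-363, squares members of miR-106b-25, dashed lines mark 4-fold, and the diagonal marks equal values. miR-20b lies at 3.10 and 2.80, miR-25 lies beside miR-92a near the 4-fold lines, and miR-93 lies on miR-20a near 0.

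How the ratio of the clusters differed between compartments depended on the summary taken. The mean-based log2 ratio of miR-106a-363 to miR-106b-25 differed between exosome fraction and cells by -0.13 in normoxia and by -0.05 in hypoxia. By the median member it differed by 1.11 and 2.04, and without single members the mean-based value ranged from -1.45 to 0.65 and from -1.26 to 0.74. For the pair miR-106a and miR-106b it differed by -1.13 in normoxia and by -0.30 in hypoxia, while for miR-20b and miR-93 it was higher by the values given above. The members were closer together in the exosome fraction than in cells, with an SD of 2.34 and 2.36 cycles against 3.33 and 3.28 over the 6. All 138 miRNAs did not show this, with an SD of 3.58 and 3.56 cycles in the exosome fraction and 3.25 and 3.21 in cells. By their lowest and highest Ct, the relatives described below did show it, to a lesser extent. Whether it was particular to any group of miRNAs was not tested.

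The third question was whether hypoxia changed the members. In cells, none was past 2-fold: 0 of the 6, beside 20 of 147 measured miRNAs (13.6%), 7.48% higher and 6.12% lower. Most of those 20 had a Ct of 32 or more in a cell sample, which no member had. Among miRNAs under Ct 32 in both cell samples, 1 was past 2-fold on the higher side and 4 on the lower, and their share was not taken. Normalized to U6, miR-106b was 1.24-fold higher in hypoxia (log2 0.31) and miR-20b 1.16-fold higher (log2 0.21). The other 4 were lower: miR-25 by 1.30-fold (log2 -0.38), miR-93 by 1.25-fold (log2 -0.32), miR-18b by 1.21-fold (log2 -0.28) and miR-106a by 1.16-fold (log2 -0.22). All of these lay inside the middle 95% of the card, from -1.19 to 1.31. The median over the members was -0.25, and over all measured miRNAs 0.03. The 2 higher members belonged to different clusters. The 0.19 cycles of U6 wells come from wells within a card and do not measure the spread between cards. With RNU44 and RNU48 as normalizers the log2 values of miR-20b and miR-106b were 0.066 and 0.16, below that spread, and those of miR-106a, miR-18b, miR-93 and miR-25 were -0.37, -0.42, -0.47 and -0.53. With the sample median miR-106a stood at -0.15.

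In the exosome fraction, normalized to the spike-in ath-miR159, 0 of the 6 were past 2-fold, beside 15 of 203 measured miRNAs (7.39%), 3.94% higher and 3.45% lower. Among miRNAs under Ct 32 in both exosome samples, as all 6 were, 2 were past it on the higher side and 0 on the lower. miR-106b was 1.26-fold lower in hypoxia (log2 -0.34), miR-93 1.16-fold lower (log2 -0.21) and miR-18b 1.15-fold lower (log2 -0.20). miR-106a, miR-25 and miR-20b were within 1.03-fold (log2 -0.03, -0.02 and 0.01). The last 3 differed by less than the 0.19 cycles, a spread taken from the U6 wells of the cell samples. Without the spike-in correction the log2 value of miR-20b turned to -0.05. The members' median was -0.11, and the median of all 203 was -0.07. The authors' deposited table gave the same ratios for the 6 members, to within 0.00019 on the log2 scale.

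**Figure D4:**
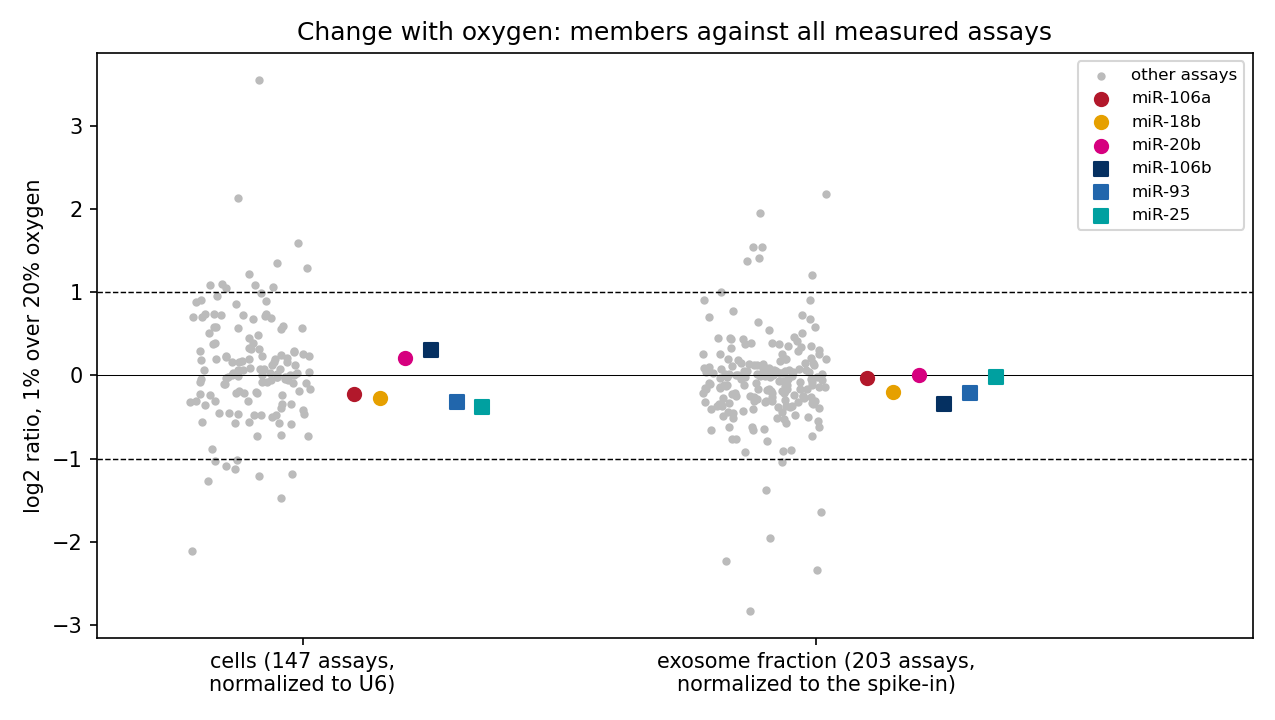
The log2 ratio of 1% over 20% oxygen is plotted for every miRNA detected in both samples of a compartment (grey points, 147 in cells normalized to U6 and 203 in the exosome fraction normalized to the spike-in), with the 6 detected members beside them (circles, miR-106a-363; squares, miR-106b-25) and dashed lines at 2-fold. The members lie between -0.38 and 0.31 in cells and between -0.34 and 0.01 in the exosome fraction.

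The response of the exosome fraction differed from that of the cells by less than 2-fold for all 6 detected members, where 22 of 138 miRNAs (15.9%) were past it, 5.8% higher and 10.1% lower. Among miRNAs under Ct 32 in the samples compared, 2 were past it on the higher side and 5 on the lower. Of the members, the difference was furthest from 0 for miR-106b, at -0.65 on the log2 scale, followed by miR-25 at 0.36. It was -0.21 for miR-20b, 0.19 for miR-106a, 0.11 for miR-93 and 0.08 for miR-18b, the last turning to -0.014 with the sample median as normalizer. The ratio of the clusters by their means differed between oxygen levels by log2 0.04 in cells and 0.12 in the exosome fraction, and by the median member by -0.59 and 0.34. Without single members the mean-based value in cells ranged from -0.11 to 0.26. Within the pairs, the ratio of miR-106a to miR-106b differed with hypoxia by log2 -0.53 in cells and 0.31 in the exosome fraction, and that of miR-20b to miR-93 by 0.54 and 0.22.

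The 6 relatives in cluster miR-17-92 were all measured in all 4 samples. Of these, 1 was past 2-fold in cells, miR-19a (2.13-fold lower in hypoxia), and 0 in the exosome fraction. The median over them was log2 -0.04 for cells and -0.13 for the exosome fraction, with miR-17 at -0.07 and -0.08 and miR-20a at -0.34 and -0.19. Between compartments they spread further than the paralogs only through miR-19a, at log2 -4.08 in normoxia and -2.64 in hypoxia. The other relatives ran from miR-17 at -0.90 and -0.99 to miR-92a at 2.05 and 2.07. That range was narrower than that of the paralogs, from -1.10 to 3.10 and from -1.01 to 2.80. The Ct of the relatives ran from miR-19b to miR-18a in every sample, from 21.02 to 28.95 in normoxic and from 20.98 to 28.78 in hypoxic cells. In the exosome fraction it ran from 14.34 to 21.96 in normoxia and from 14.96 to 22.22 in hypoxia. These spans were slightly narrower than those in cells.

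Assays with a profile like that of a cluster were sought by the root mean square difference, over the 4 samples, between centred Ct profiles. For cluster miR-106a-363 the 5 closest were miR-532-5p, miR-125b, miR-660, miR-484 and miR-200a, at 0.16 to 0.20 cycles. For cluster miR-106b-25 they were miR-125b, miR-24, miR-532-5p, miR-181c and miR-660, at 0.18 to 0.22 cycles. The median over the other assays was 0.67 and 0.70 cycles. The members themselves lay at 0.53 to 1.27 cycles from their mean profile in miR-106a-363, with miR-18b the closest, and at 0.27 to 0.69 cycles in miR-106b-25, with miR-93 the closest.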

How the data were processed

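The data were 384 wells per sample from TaqMan array cards in 4 samples, 1 per group. Per the labels' protocols, 3 µl of each 50 µl RNA eluate was reverse transcribed, and the exosome products were pre-amplified. The authors deposited raw Ct values and a table of the ratio (fold) of hypoxia over normoxia, made per the series' design text with Data Assist Software 3.1. No source used here gives the method behind the ceiling of 35.

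Log2 changes were negative differences of Ct minus the mean of the U6 wells (cells) or minus the spike-in (exosome fraction), over assays under 35 in the samples compared. Compartments were compared after median centring. No test was made, because each group is 1 sample. A Ct carries no count, and the number of samples limits the precision. The members and lists were chosen with earlier results of these data known. Named miRNAs are the 7 members, the 6 relatives, assays of the same seed, miR-210, control assays, markers and the 5 closest profiles per cluster. Of the assays that share a member's seed by name, miR-526b was left out because the matching arm is the other one. Python 3.11.15, numpy 2.4.6 and pandas 2.3.3 were used, and the calculation was tested on simulated data.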

Additional observations from a re-analysis of the deposited data

Results flagged for a closer look

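These values had opposite signs in the groups set side by side, with 1 sample behind each, and the differences were not tested. Among all 138 miRNAs detected in all 4 samples, 72 (52.2%) had opposite signs of the oxygen response in cells and exosome fraction, and of the 6 detected members 1 had.

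The log2 change of miR-106b with hypoxia was 0.31 for cells and -0.34 for exosomes, which differ by -0.65. Its log2 ratio of exosome fraction over cells was 0.03 in normoxia and -0.71 in hypoxia, a difference of -0.74. For miR-93 that ratio was -0.01 and 0.01, a difference of 0.018, which is below the spread of U6 wells.

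Among the relatives, the oxygen response in the exosome fraction minus that in cells was -0.37 for miR-18a, 1.53 for miR-19a (-1.09 in cells and 0.44 in the exosome fraction), -0.60 for miR-19b and 0.11 for miR-92a. The ratio of exosome fraction over cells in hypoxia minus that in normoxia was -0.46 for miR-18a and 0.059 for miR-20a. For miR-210 it was -3.26 (0.05 in normoxia and -3.20 in hypoxia).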

How the results depend on the processing

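No paired analysis was possible because each group holds 1 sample, and the labels number no replicates and do not tie a cell sample to the medium of its own culture, and for the same reason no replicate was left out. A value was taken to have moved when it differed by more than 0.14 cycles, the mean SD of U6 wells in cells. Leaving out assays with a Ct near a whole cycle, an alternative chosen after seeing the data, left 0, 1 and 0 assays for cells, exosome fraction and their difference, and gave no value. Under the normalizers tried, 57 of 60 values of single members for oxygen kept their sign and 12 of 60 moved. In either compartment 0 members were past 2-fold. Part of the 60 only leave out 1 U6 well or the spike-in, which are small shifts shared by all members. Between compartments, under the centrings tried, 33 of 48 kept their sign and 48 of 48 moved.

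With RNU44 and RNU48 the members' median was -0.39 in cells and 0.24 for the difference of responses, with 6 assays 2-fold higher in cells and 13 in the difference. With Ct under 32 the assays past 2-fold were 1 higher and 4 lower in cells, 2 and 0 in the exosome fraction, and 2 and 5 for the difference. At 1.5-fold there were 28 higher in cells, 15 higher and 20 lower in the exosome fraction, and 17 and 35 for the difference, with 1 member, miR-106b.

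Between compartments, the median over all assays detected in a sample gave a members' median of 2.80 in normoxia and 2.66 in hypoxia, with 5 members and 68 assays 4-fold higher and 2 assays lower. Mean centring gave 0.67 and 0.62, with 2 members and 9 assays higher. The median under Ct 32 gave 0.75 and 0.68, with 2 members and 10 assays higher and 14 lower. The reference of miR-17, miR-20a and miR-93, chosen after seeing the data, gave 0.33 and 0.011, with 2 members and 7 assays higher. At 2-fold, 2 members and 11 assays were higher and 1 member, miR-106a, and 38 assays lower.

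The cluster difference by the median member was 2.05, 2.63, 0.94 and 0.59 cycles in normoxic cells, hypoxic cells, normoxic and hypoxic exosome fraction. From the 2 complete pairs it was 0.047, 0.042, -0.94 and -1.20. Leaving out each member in turn gave -2.03 to 2.59, -1.91 to 2.49, -1.46 to 1.94 and -1.64 to 1.84. The log2 change of the cluster ratio between exosome fraction and cells, in normoxia and hypoxia, was 1.11 and 2.04 by the median and 0.99 and 1.25 from the 2 pairs, and ranged from -1.45 to 0.65 and from -1.26 to 0.74 without single members. With hypoxia it was -0.59 for cells and 0.34 for exosomes by the median, 0.26 in the exosome fraction from the 2 pairs, and ranged from -0.11 to 0.26 and from 0.04 to 0.20 without single members. Members under Ct 32 were the same 6, and a factor of 1.9 per cycle in place of 2 moved none of these. The causes of the changes were not tested.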

Other observations

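The crowding of Ct values near whole cycles was paired by compartment. Of the 147 miRNAs detected in both cell samples, 0 had both Ct values further than 0.1 from a whole cycle, and of the 203 detected in both exosome samples 1 had. Over the 138 miRNAs detected in all 4 samples, 0 were clear of whole cycles in both cell samples, where the shares of the single samples multiply to 18.4, and 1 was clear in both exosome samples, where they multiply to 17.1. Between a cell and an exosome sample the counts were 12 to 25, beside products of 10.5 to 30.1. Most of the crowded values lay just below a whole cycle: 46.3% and 66.5% of the detected wells of normoxic and hypoxic cells, and 51.6% and 59.4% of those of the exosome fractions, lay at most 0.1 below one.

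miR-106a and miR-17 both stood within 0.1 of a whole cycle in hypoxic cells (21.94 and 21.95) and in the hypoxic exosome fraction (15.96 and 15.96), and neither did in normoxia.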
